A study of Mus musculus with 16 samples.

Results

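Nodal signalling and the response to TGF-beta were followed through 10 genes: Nodal, Lefty1, Tdgf1, Foxh1, Smad2, Smad3, Smad4, Skil, Ski and Tgfbi. Every probe set of the array that carried exactly 1 gene symbol, and whose symbol was one of these, was taken, which gave 20 of the 22690 probe sets. All 10 genes, of 12393 on the array, were represented, 6 of them by more than 1 probe set. The arrays (Affymetrix Mouse 430A 2.0) had been hybridized with RNA of the J1 line of mouse embryonic stem (ES) cells, grown without feeder cells on gelatin in serum and leukemia inhibitory factor (LIF). The 16 arrays fall into 5 groups, all of this strain and medium: Tgif1 KD (knockdown of Tgif1, 2 arrays) with its shControl group (2 arrays), and the arrays labelled Tgif1 OE (overexpression of Tgif1, 4 arrays) and Tgif2 OE (overexpression of Tgif2, 4 arrays) with their BirA control group (4 arrays). BirA is a bacterial biotin ligase; the vectors, the promoters that drove them and whether lines were single clones are not stated in the labels. Nor do the labels state that replicates were separate cultures; p-values therefore measure the spread between these arrays alone, and that spread may be technical.

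Nodal is a secreted ligand of the TGF-beta family that binds activin receptors together with the co-receptor Cripto, the product of Tdgf1. The activated receptors phosphorylate Smad2 and Smad3, which join Smad4, enter the nucleus and bind DNA with partners such as Foxh1. Lefty1 is a secreted inhibitor of Nodal and a target gene of the pathway, so that it forms a negative feedback loop; Skil (SnoN) and Ski are corepressors of Smads, and Tgfbi is an extracellular matrix gene named for its induction by TGF-beta. Tgif1 and Tgif2 are homeodomain proteins that can bind Smad2 and Smad3 and repress their targets. In ES cells the pathway is active without added ligand.

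Nodal, Tdgf1 and Tgfbi are the members whose probe sets all rose on the Tgif1 KD arrays and for which a promoter sequence was at hand, and their promoters are shown so that the letters Smads, Foxh1 and Tgif1 are known to prefer can be looked for. RefSeq promoter sequence on GRCm38.p6 matched 5 of the 10 genes (Nodal, Tdgf1, Smad3, Ski and Tgfbi). Each window is the 250 bases before the annotated start of the gene, on the strand of the gene; Nodal is at chr10:61417722-61417971 (plus strand), Tdgf1 at chr9:110946159-110946408 (minus strand) and Tgfbi at chr13:56609336-56609585 (plus strand). Capitals mark a match to CAGAC, the Smad element, or to its reverse complement.
Nodal: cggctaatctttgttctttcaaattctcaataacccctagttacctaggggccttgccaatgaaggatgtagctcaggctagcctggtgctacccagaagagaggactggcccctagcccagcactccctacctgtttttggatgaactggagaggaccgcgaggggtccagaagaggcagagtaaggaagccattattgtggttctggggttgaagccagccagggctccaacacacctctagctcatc
Tdgf1: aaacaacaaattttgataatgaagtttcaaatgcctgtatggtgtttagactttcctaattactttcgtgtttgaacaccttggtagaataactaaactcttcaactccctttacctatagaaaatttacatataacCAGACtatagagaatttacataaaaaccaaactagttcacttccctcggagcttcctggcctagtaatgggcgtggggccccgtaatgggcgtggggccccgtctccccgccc
Tgfbi: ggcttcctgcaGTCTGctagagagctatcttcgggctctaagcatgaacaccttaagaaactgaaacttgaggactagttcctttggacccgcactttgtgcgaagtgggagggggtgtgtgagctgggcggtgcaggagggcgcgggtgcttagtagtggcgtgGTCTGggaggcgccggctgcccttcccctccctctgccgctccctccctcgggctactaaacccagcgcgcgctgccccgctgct

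CAGAC, the core TGTCA of Tgif1 sites and the Foxh1 element AATNCACA were searched on both strands, where N is any base. The Tdgf1 window held 1 CAGAC, 113 to 109 bases before the start. The Tgfbi window held 2, both on the opposite strand, at 239 to 235 and at 85 to 81 bases before the start. The Nodal window held none, and TGTCA and AATNCACA were in none of the 3 windows. Of 32851 promoter windows of the same length, 42.2% held CAGAC, 40% held TGTCA and 3.18% held AATNCACA, so a match to either short motif is common. A match describes letters in this window, and no match says only that they are not in it.

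Tgif1 and Tgif2 themselves served as a check of the labels. Tgif1 fell by 3.39 ± 0.10 log2 (SE) on the Tgif1 KD arrays (limma, adjusted p = 9.22e-11) and Tgif2 rose by 0.81 ± 0.09 (adjusted p = 2.21e-05). The signal of Tgif1 went down, not up, under the Tgif1 OE label (log2 change -0.58 against BirA control, adjusted p = 7.91e-05), and that of Tgif2 did not pass under the Tgif2 OE label (0.11, adjusted p = 0.226). No source here says if the probes match the transgenes, so the direction of each overexpression result rests on the label. All 8 ES cell markers were measured, and their summed intensity was 41190 to 63630 over the 16 arrays. The Tgif2 OE columns stood apart: their medians averaged 0.08 log2 above those of the other 12 arrays, and the median change of all probe sets against BirA control was 0.11. Within the overexpression groups, replicates 1 and 2 resembled each other, as did replicates 3 and 4; what these pairs of arrays are is not in the labels. The change against BirA control differed between the pairs (limma, adjusted p) at 1 of the 20 member probe sets for Tgif1 OE, beside 3.19% of all probe sets, and at 5 of 20 for Tgif2 OE, beside 4.29%. Those 5 were all probe sets of Tgfbi or Skil, and probe sets of 1 gene are not independent. The difference of Tgif1 OE from Tgif2 OE varied with the pair at 0 of 20 (6 at an unadjusted p under 0.05), beside 0.654% of all probe sets.

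**Figure D1:**
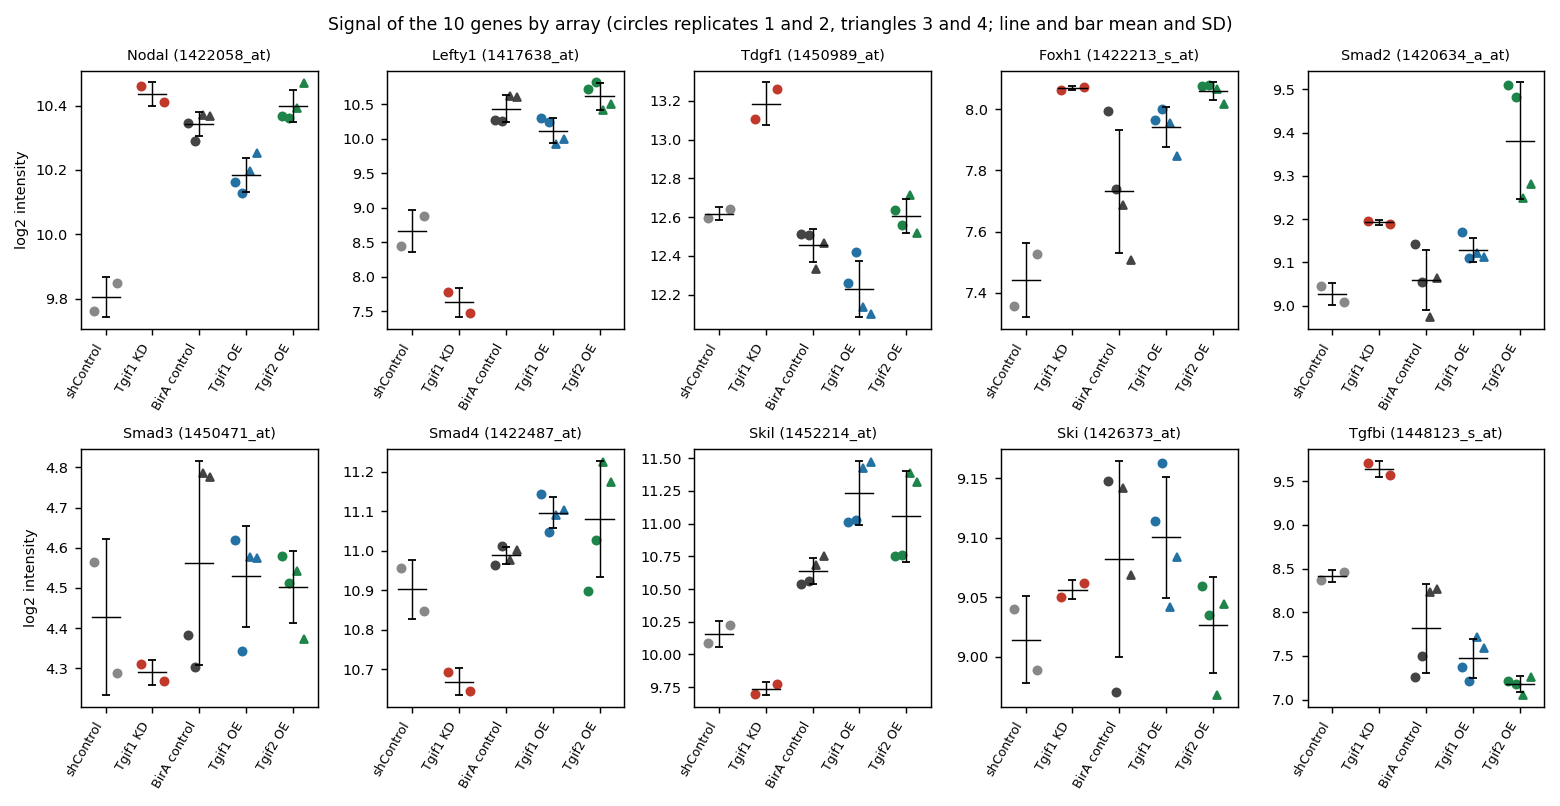
Deposited log2 intensity of the 10 genes on each of the 16 arrays, for the probe set of each gene with the highest mean, with 1 panel per gene and its own vertical axis. Circles are replicates 1 and 2 and triangles replicates 3 and 4, and the line and bar are the mean and SD of a group. Lefty1 lies between 7.48 and 8.88 on the 4 arrays of the knockdown arm and between 9.92 and 10.81 on the 12 arrays of the overexpression arm.

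On the Tgif1 KD arrays the ligand Nodal, its co-receptor gene Tdgf1, the Smad partner Foxh1 and the matrix gene Tgfbi rose, and the feedback inhibitor Lefty1 fell to 0.488 of the control intensity. Of the 20 probe sets, 10 were higher, 2 were lower and 8 did not pass (adjusted p under 0.05 over all 22626 probe sets tested). The members' share of 60% compares with a background of 22.3% of all probe sets called, 11.2% higher and 11.1% lower. Probe sets of 1 gene are not independent. By gene, 4 had a probe set called higher, 2 had one called lower and 4 had none. The members were also chosen with earlier results of these data known, which limits what their share can show. The median change of the 20 was 0.31 log2 and that of all probe sets -0.04. The Tgif1 KD and shControl arrays did not overlap for 19 of the 20, against 67% of all probe sets with 2 arrays a group. Measures of the arrays moved with these results. The 5′ minus 3′ difference of the Actb control probe sets averaged -0.51 on Tgif1 KD and -0.64 on shControl arrays and that of Gapdh -0.09 and -0.21, each without overlap, so RNA quality and knockdown cannot be told apart here. The summed ES cell marker intensity was 63120 to 63630 against 55040 to 55280, with 1 of 8 markers called higher. Sums for other cell types also moved without overlap: primitive endoderm was 842.3 to 875.2 against 557 to 565.6 (2 of 8 markers higher, none lower), trophectoderm 982.3 to 1001 against 1311 to 1410 (1 of 8 higher, 1 lower) and fibroblasts 457.5 to 460.6 against 592.3 to 634.6 (1 of 12 higher, 1 lower). The sums of primitive streak and mesoderm markers (1230 to 1338 against 1200 to 1213, 1 of 7 higher and 1 lower) did not overlap either. Nor did those of blood markers (116.6 to 119.5 against 113.7 to 113.9, with 0 of 6 called). The part of these markers in the results was not tested.

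Nodal was read by a pair of probe sets. At 1422058_at the shControl arrays gave 9.76 and 9.85 log2 and the Tgif1 KD arrays 10.46 and 10.41. At 1422057_at they gave 7.26 and 7.31 against 8.34 and 8.20. Both Tgif1 KD arrays were above both controls at each probe set. The log2 changes were 0.63 ± 0.07 (adjusted p = 1.95e-05) and 0.99 ± 0.18 (adjusted p = 0.000977), which are intensity ratios of 1.55 and 1.99.

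Tdgf1, which encodes the Nodal co-receptor Cripto, gave 12.59 and 12.64 log2 on shControl and 13.11 and 13.26 on Tgif1 KD arrays. The groups did not overlap, and the change was 0.57 ± 0.11 (adjusted p = 0.00139). Lefty1 moved the other way. Its probe set gave 8.45 and 8.88 on shControl and 7.78 and 7.48 on Tgif1 KD arrays, a log2 change of -1.04 ± 0.19 (adjusted p = 0.000967). The calls of Nodal, Tdgf1 and Lefty1 held in every alternative of this comparison that was run, and the change of Lefty1 ranged from -1.26 to -0.82.

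Foxh1 was read by 3 probe sets, and all rose. At the one with the highest mean, 1422213_s_at, shControl gave 7.36 and 7.53 and Tgif1 KD 8.06 and 8.07. The changes were 0.63 ± 0.12 (adjusted p = 0.00119) there, 0.46 ± 0.09 (adjusted p = 0.00216) at 1422212_at and 0.87 ± 0.10 (adjusted p = 2.79e-05) at 1437779_at. The Smad genes themselves moved less. Smad2, an effector of Nodal and activin, gave 9.04 and 9.01 against 9.20 and 9.19, and its change of 0.17 ± 0.09 did not pass (adjusted p = 0.225, 95% interval -0.03 to 0.36). For Smad4, the common partner, the changes at 3 probe sets were -0.12, -0.32 and -0.23 (adjusted p = 0.553, 0.0986 and 0.0917). Smad3, the other effector, had dim probe sets, with group means between 3.48 and 4.56 log2. Its probe set 1450472_s_at fell from 3.80 and 3.78 to 3.42 and 3.54 (-0.31 ± 0.09, adjusted p = 0.0189), and the other, 1450471_at, was -0.14 (adjusted p = 0.594). The Smad3 call was lost without shControl replicate 1 (adjusted p = 0.0895), without shControl replicate 2 (adjusted p = 0.0795) and without Tgif1 KD replicate 1 (adjusted p = 0.156).

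The corepressor genes did not pass the threshold. Skil gave 10.09 and 10.23 on shControl and 9.70 and 9.77 on Tgif1 KD arrays at 1452214_at, a change of -0.42 ± 0.21 (adjusted p = 0.176, 95% interval -0.87 to 0.03). Its dimmer probe set 1422054_a_at was -0.57 ± 0.27 (adjusted p = 0.158, 95% interval -1.15 to 0.01). The Tgif1 KD arrays were below both controls at each. When only the knockdown arm was fitted, so that its own spread set the test, both Skil probe sets were called lower (adjusted p = 0.0188 and 0.0265). Ski was 0.04 ± 0.08 (adjusted p = 0.758, 95% interval -0.12 to 0.20).

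Tgfbi, the member with the most probe sets, rose at all 4. At 1448123_s_at the shControl arrays gave 8.36 and 8.46 and the Tgif1 KD arrays 9.71 and 9.58. The change there was 1.23 ± 0.27 (adjusted p = 0.00343), an intensity ratio of 2.34. At 1415871_at it was 1.07 ± 0.24 (adjusted p = 0.00407), at 1437463_x_at 1.05 ± 0.29 (adjusted p = 0.0156) and at 1456250_x_at 1.13 ± 0.31 (adjusted p = 0.0155). The calls of the last 2 were lost when any 1 of the 4 arrays was left out, with adjusted p from 0.0695 to 0.0781 for 1437463_x_at and from 0.0567 to 0.0912 for 1456250_x_at. Probe sets ending in _x_at may also hybridize to other transcripts.

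**Figure D2:**
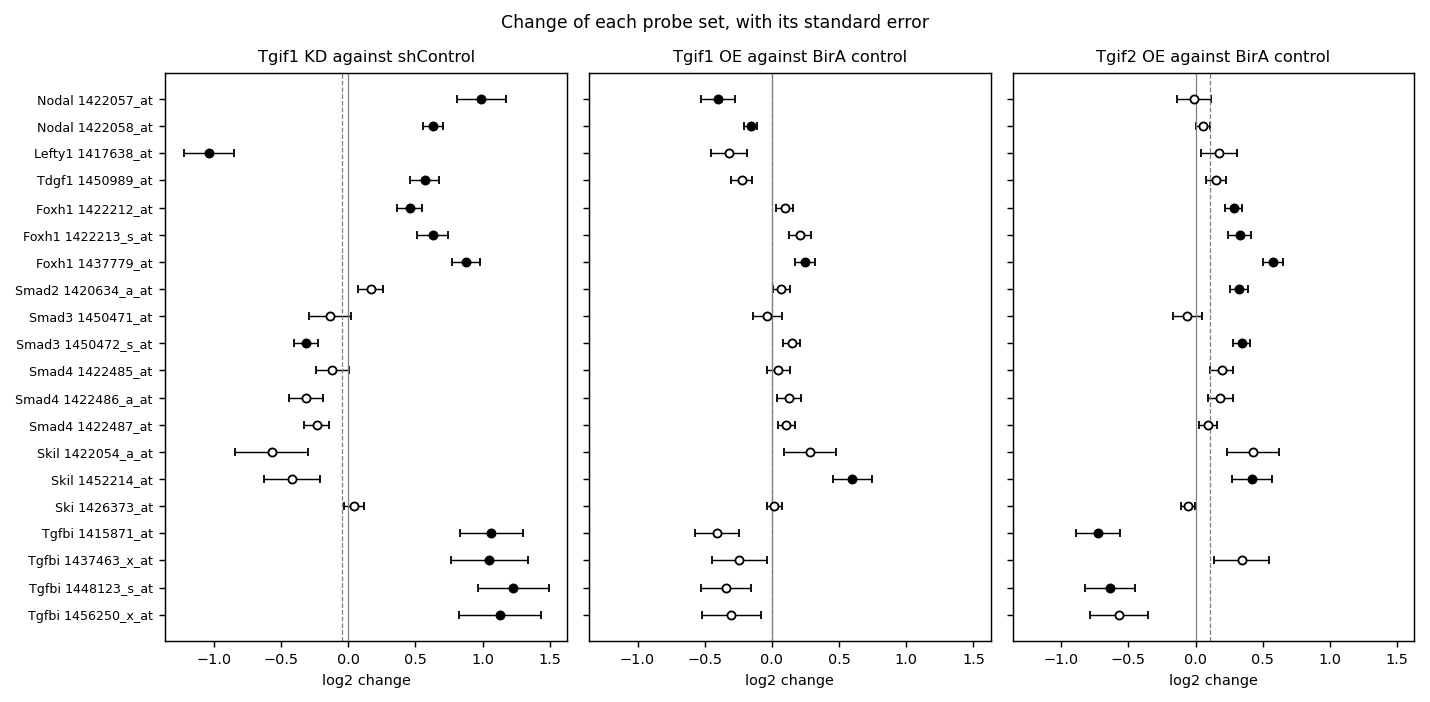
Log2 change of each of the 20 probe sets against its control group in 3 comparisons. Points are estimates of the linear model, bars are 1 SE, filled points have an adjusted p under 0.05, and the dashed line is the median change of all probe sets. The Tgif1 KD changes reach from -1.04 for Lefty1 to 1.23 for Tgfbi, a wider range than in either overexpression comparison.

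On the arrays labelled Tgif1 OE, Nodal was lower and Skil higher than on BirA control, and few other members changed. Of the 20 probe sets, 2 were higher, 2 were lower and 16 did not pass; this 20% is close to the background of 17.8% of all probe sets called, 8.74% higher and 9.09% lower. The median change of the 20 was 0.03 log2. The groups did not overlap for 3 probe sets, against 20.8% of all. Markers of other cell types moved here too. Of 12 fibroblast markers 5 were higher and none lower, with a summed intensity of 388.9 to 503 against 316.4 to 373.7, and 3 of 8 trophectoderm markers were higher and 1 lower (2761 to 5469 against 1036 to 1222). Of 8 ES cell markers 5 were lower (41190 to 45620 against 48930 to 54380). The sums of primitive endoderm (394.2 to 451.1 against 494.1 to 544.8) and of primitive streak and mesoderm markers (454.8 to 491.7 against 709.4 to 926) were lower without overlap, with 1 of 8 higher and 1 lower in the former and 1 of 7 lower in the latter. In bulk samples fewer cells of a type and less RNA per cell cannot be told apart, and the part of these markers in the results was not tested.

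Nodal at 1422058_at gave 10.35, 10.29, 10.37 and 10.37 on BirA control and 10.16, 10.13, 10.20 and 10.25 on Tgif1 OE arrays. The Tgif1 OE arrays were all below the controls. The log2 change was -0.16 ± 0.05 (adjusted p = 0.0419). At 1422057_at it was -0.40 ± 0.13 (adjusted p = 0.0403), with 8.14, 8.05, 8.26 and 8.30 on BirA control against 7.61, 7.50, 8.06 and 7.97, where the groups overlapped. Neither call was stable. That of 1422058_at was lost without any 1 of 6 of the 8 arrays (BirA control 1, 3 and 4 and Tgif1 OE 1, 2 and 3, adjusted p from 0.0747 to 0.108), and that of 1422057_at without any 1 of 5 (BirA control 1, 3 and 4 and Tgif1 OE 1 and 2, adjusted p from 0.0669 to 0.124). With the pair of arrays as a random block the adjusted p was 0.194 and 0.0951, with the pairs averaged 0.371 and 0.264, and after quantile normalization that of 1422058_at was 0.0732.

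Tdgf1 gave 12.51, 12.51, 12.33 and 12.46 on BirA control and 12.26, 12.42, 12.13 and 12.10 on Tgif1 OE arrays, and the groups overlapped. The change of -0.22 ± 0.08 missed the threshold (adjusted p = 0.0559). It passed in 7 of 20 alternatives, among them the replicate number as a block (adjusted p = 0.0406) and the array pair as a fixed term (0.019). It did not pass with the pair of arrays as a random block (0.237) or the pairs averaged (0.303). Lefty1 differed between the pairs of arrays. BirA control gave 10.26, 10.26, 10.61 and 10.60 and Tgif1 OE 10.30, 10.25, 9.92 and 9.996, so that the change was 0.01 in replicates 1 and 2 and -0.65 in replicates 3 and 4. Over all arrays it was -0.32 ± 0.13 (adjusted p = 0.12), and the difference between the pairs did not pass (adjusted p = 0.0725).

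Skil at 1452214_at rose without overlap. BirA control gave 10.54, 10.56, 10.68 and 10.75, and the Tgif1 OE arrays 11.01, 11.03, 11.42 and 11.47. The change was 0.60 ± 0.15 (adjusted p = 0.0104), 0.47 in replicates 1 and 2 and 0.73 in replicates 3 and 4. The call remained with the pair of arrays as a random block and was lost when the pairs were averaged before the fit, which leaves 2 values a group (adjusted p = 0.148). The dimmer probe set 1422054_a_at was 0.28 ± 0.19 (adjusted p = 0.375), and its change was -0.01 in replicates 1 and 2 and 0.58 in replicates 3 and 4. Ski was 0.02 ± 0.05 (adjusted p = 0.877).

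Of the 3 Foxh1 probe sets only 1437779_at was called (0.25 ± 0.07, adjusted p = 0.0302); 1422213_s_at, at 0.21, was called with the replicate block (adjusted p = 0.0463) but not with the random block of array pairs (0.332) or the pairs averaged (0.374), and 1422212_at was 0.10 (adjusted p = 0.385). The 1437779_at call was lost without any 1 of BirA control 3 or 4 or Tgif1 OE 1, 2 or 3 (adjusted p from 0.0597 to 0.0948), with the random block (0.153) and with the pairs averaged (0.241). Smad2, Smad3 and Smad4 had 6 probe sets, none of which passed, with changes between -0.03 and 0.15. Over all arrays the 4 Tgfbi probe sets were between -0.41 and -0.24 and none passed (adjusted p from 0.114 to 0.496). This average hid a split between the pairs of arrays. Fitted alone, replicates 3 and 4 showed Tgfbi lower by -0.66 to -0.55, and all 4 probe sets passed (adjusted p from 0.000792 to 0.0116). For replicates 1 and 2 the range was -0.23 to 0.07. The difference between the pairs itself passed only at 1456250_x_at (adjusted p = 0.0137).

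On the arrays labelled Tgif2 OE, Foxh1, Smad2 and Skil were higher and Tgfbi lower than on the same BirA control arrays, so that this comparison and the preceding one share their controls. Of the 20 probe sets 6 were higher, 2 lower and 12 did not pass; the 40% compares with a background of 31.1% called, 24.9% higher and 6.18% lower. The median change of the 20 was 0.18 log2 and that of all probe sets 0.11. After quantile normalization, which removes the shift of these columns, 4 were higher and 4 lower. The groups did not overlap for 8, against 29.9% of all probe sets. Of 8 trophectoderm markers 6 were higher and 1 lower (1833 to 4217 against 1036 to 1222), and of 12 fibroblast markers 4 were higher and none lower (388.7 to 506.8 against 316.4 to 373.7). The sum of primitive streak and mesoderm markers was lower (557.7 to 585.5 against 709.4 to 926; 3 of 7 higher, 1 lower) and that of blood markers higher (131.3 to 139.3 against 99.94 to 116.3; 1 of 6 higher), each without overlap, and 4 of 8 primitive endoderm markers were higher and 2 lower (485 to 509.8 against 494.1 to 544.8). The part of these markers was not tested.

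Foxh1 rose at all 3 probe sets. At 1437779_at BirA control gave 7.02, 6.97, 6.89 and 6.85 and the Tgif2 OE arrays 7.44, 7.44, 7.56 and 7.60. The groups were well apart, and the change was 0.58 ± 0.07 (adjusted p = 5.2e-05), or 0.47 relative to the median of all probe sets. The changes were 0.28 ± 0.07 at 1422212_at and 0.33 ± 0.08 at 1422213_s_at (adjusted p = 0.00448 and 0.00797). With each column centred on its median they were 0.18 and 0.22, and neither passed (adjusted p = 0.067 and 0.0601). With the pair of arrays as a random block they did not pass either (adjusted p = 0.0551 and 0.0605), nor with the pairs averaged (0.103 and 0.0906).

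Smad2 gave 9.14, 9.06, 8.97 and 9.06 on BirA control and 9.51, 9.48, 9.25 and 9.28 on Tgif2 OE arrays. The groups did not overlap, and the change was 0.32 ± 0.06 (adjusted p = 0.00176), or 0.21 relative to the median of all probe sets; with the pairs of arrays averaged it did not pass (adjusted p = 0.0642). The dim Smad3 probe set 1450472_s_at gave 3.72, 3.83, 3.96 and 3.80 against 4.03, 4.21, 4.21 and 4.23 (0.34 ± 0.06, adjusted p = 0.000865), while 1450471_at was -0.06 (adjusted p = 0.71). The Smad4 probe sets were 0.20, 0.18 and 0.09 and did not pass; with the replicate block the first 2, 1422485_at and 1422486_a_at, did (adjusted p = 0.0171 and 0.0145), but not with the random block of array pairs (0.201 and 0.247) or the pairs averaged (0.342 and 0.405).

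Skil at 1452214_at gave 10.75, 10.76, 11.39 and 11.32 on Tgif2 OE arrays, all above BirA control, 2 of them by little. The change was 0.42 ± 0.15 (adjusted p = 0.0419), 0.21 in replicates 1 and 2 and 0.64 in replicates 3 and 4. It did not pass after quantile normalization (0.28, adjusted p = 0.201) or without any 1 of BirA control 1, 2 or 3 or Tgif2 OE 3 or 4 (adjusted p from 0.0615 to 0.13), nor with the random block of array pairs (0.075) or the pairs averaged (0.214). At 1422054_a_at the change was 0.43 ± 0.19 (adjusted p = 0.106), and its adjusted p was 0.021 with the replicate block, 0.187 with the random block and 0.316 with the pairs averaged. Ski, called nowhere among the deposited values, was -0.06 ± 0.05 (adjusted p = 0.462); after quantile normalization it was -0.16 and passed (adjusted p = 0.0384).

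Tgfbi was lower at 2 of its 4 probe sets, and the probe sets disagreed. At 1448123_s_at BirA control gave 7.26, 7.50, 8.23 and 8.27 and the Tgif2 OE arrays 7.22, 7.18, 7.05 and 7.26. BirA control replicates 3 and 4 were above every Tgif2 OE array, and BirA control replicates 1 and 2 were close to them. The change was -0.64 ± 0.19 (adjusted p = 0.0186), -0.18 in replicates 1 and 2 and -1.09 in replicates 3 and 4. It was lost without BirA control replicate 3 (adjusted p = 0.0584) or BirA control replicate 4 (adjusted p = 0.0581), and with the pairs averaged (adjusted p = 0.133). At 1415871_at the change was -0.73 ± 0.17 (adjusted p = 0.0044), with 6.001, 6.24, 6.77 and 6.76 against 5.62, 5.77, 5.51 and 5.96. There the groups did not overlap. At 1456250_x_at the change was -0.57 ± 0.22 (adjusted p = 0.06), 0.01 in replicates 1 and 2 and -1.15 in replicates 3 and 4. It passed in 7 of 19 alternatives, among them quantile normalization (-0.66, adjusted p = 0.0416), centring (-0.67, 0.0373) and the replicate block (0.0323). It did not pass with the random block (0.106) or the pairs averaged (0.238). At 1437463_x_at the change was 0.34 ± 0.20 (adjusted p = 0.217), 0.89 in replicates 1 and 2 and -0.20 in replicates 3 and 4.

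**Figure D3:**
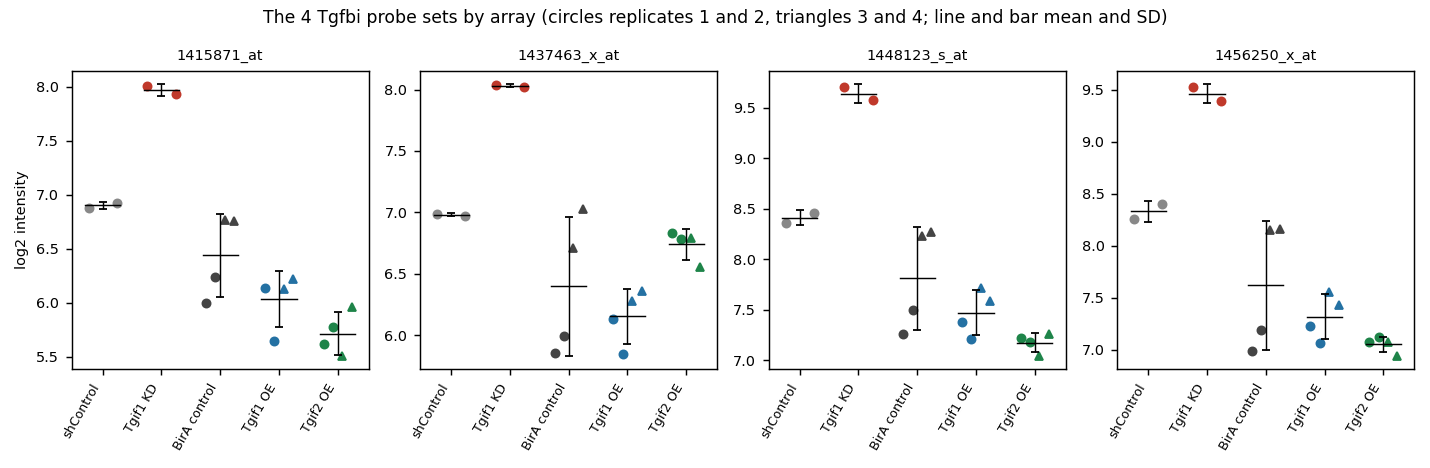
Log2 intensity of the 4 Tgfbi probe sets on each of the 16 arrays, with circles for replicates 1 and 2, triangles for replicates 3 and 4, and the mean and SD of each group. At 1448123_s_at BirA control replicates 1 and 2 (7.26 and 7.50) lie apart from replicates 3 and 4 (8.23 and 8.27), and the Tgif1 KD arrays lie highest at all 4 probe sets.

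Nodal, Tdgf1 and Lefty1 did not pass against BirA control on the Tgif2 OE arrays. Nodal at 1422058_at was 10.37, 10.36, 10.39 and 10.47, a change of 0.05 ± 0.05 (adjusted p = 0.442), and at 1422057_at the change was -0.01 ± 0.13 (adjusted p = 0.959). Tdgf1 was 0.15 ± 0.08 (adjusted p = 0.146). Lefty1 gave 10.72, 10.81, 10.41 and 10.50, so that its change was 0.50 in replicates 1 and 2 and -0.15 in replicates 3 and 4, and 0.17 ± 0.13 over all arrays (adjusted p = 0.343).

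Set directly against the Tgif2 OE arrays, which uses no control, the Tgif1 OE arrays were lower at 7 of the 20 probe sets and higher at none (35%; background 18.6% called, 16.7% lower and 1.93% higher). The 7 were both Nodal probe sets, Lefty1, Tdgf1, Foxh1 at 1437779_at, Smad2 and Smad3 at 1450472_s_at. Tdgf1 differed by -0.38 ± 0.08 (adjusted p = 0.00466), Lefty1 by -0.50 ± 0.13 (adjusted p = 0.0201) and Nodal at 1422058_at by -0.21 ± 0.05 (adjusted p = 0.011). For these 3 the groups did not overlap, as for 9 of the 20 in all (background 23.7%). At an unadjusted p under 0.05 there were 9 lower and still 0 higher. The median change of all probe sets was -0.11 here, and none of the 7 passed once the columns were quantile-normalized or centred on their medians. Lefty1 was then -0.34 and -0.39 (adjusted p = 0.127 and 0.0885), and Tdgf1 -0.22 and -0.27 (adjusted p = 0.0823 and 0.0578). Their call and the scale of the Tgif2 OE columns cannot be told apart. With the columns as deposited, none of the 7 passed with the pair of arrays as a random block (Tdgf1 adjusted p = 0.055, Lefty1 0.0759 and Nodal at 1422058_at 0.0912) or with the pairs averaged (0.125, 0.242 and 0.218). The Lefty1 call was also lost without any 1 of Tgif1 OE 3 or 4 or Tgif2 OE 1 or 2 (adjusted p from 0.0535 to 0.0591).

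The effect of the knockdown and that of the Tgif1 OE label share no array, and their difference was tested in the same model. It passed at 14 of the 20 probe sets, 10 higher and 4 lower (70%, with a background of 24.6% called, 12.4% higher and 12.2% lower). By gene, 4 had a probe set that was higher, 4 had one that was lower and 2 had none. The choice of the members with earlier results known limits this share too. A difference does not mean that the effects were opposed. Foxh1 at 1437779_at was higher in both comparisons (0.87 with knockdown and 0.25 under the Tgif1 OE label). Lefty1 was lower in both (-1.04 and -0.32, the latter not passing). Nodal rose with knockdown and was lower under the Tgif1 OE label, and the effects differed by 0.79 ± 0.09 at 1422058_at (adjusted p = 1.3e-05) and 1.39 ± 0.22 at 1422057_at (adjusted p = 0.000291). Tdgf1 differed by 0.79 ± 0.13 (adjusted p = 0.000455) and the 4 Tgfbi probe sets by 1.29 to 1.57. Of these, 1437463_x_at did not pass without shControl 2 or Tgif1 KD 1 (adjusted p = 0.0508 and 0.0503), nor 1456250_x_at without shControl 1 or Tgif1 KD 1 (0.0508 and 0.0515). Skil at 1452214_at went the other way, by -1.02 ± 0.26 (adjusted p = 0.00857). Also lower were the dim Smad3 probe set 1450472_s_at (-0.46, adjusted p = 0.00584) and Smad4 at 1422487_at (-0.34, adjusted p = 0.0415). The Smad4 call was lost in 13 of 20 alternatives. Lefty1, at -0.72 ± 0.23, passed (adjusted p = 0.0344) and did not with the replicate block (adjusted p = 0.0502) or with the pairs of arrays averaged (adjusted p = 0.129). It also missed without shControl replicate 2 (-0.50, adjusted p = 0.208), without Tgif1 KD replicate 2 (-0.57, adjusted p = 0.167), and without BirA control or Tgif1 OE replicates 1 or 2 (adjusted p from 0.059 to 0.061). The Foxh1 probe set 1437779_at differed by 0.63 and passed in every alternative run. The other Foxh1 probe sets, 1422212_at (0.36, adjusted p = 0.0299) and 1422213_s_at (0.42, adjusted p = 0.0467), did not pass with the random block (0.101 and 0.11) or the pairs averaged (0.118 and 0.104). The call of 1422212_at was also lost after quantile normalization (0.0537), with trended variance (0.0517) and without any 1 of shControl 1, Tgif1 KD 1 or BirA control 2 (0.0501 to 0.195). That of 1422213_s_at was also lost after centring (0.0549) and without any 1 of the 12 arrays other than BirA control 1 and 4 (0.0512 to 0.195).

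The group means can also be set in order over all 5 groups. The knockdown arm and the overexpression arm differed in their controls, and as the arms share no group this difference and the arm cannot be told apart. Lefty1 was highest on Tgif2 OE (mean 10.61), then BirA control (10.44) and Tgif1 OE (10.12), which overlapped as neighbours, and then shControl (8.66) and Tgif1 KD (7.63), each apart from the next. Skil at 1452214_at ran Tgif1 OE 11.23, Tgif2 OE 11.06, BirA control 10.64, shControl 10.16 and Tgif1 KD 9.74, and only the first 2 overlapped. Tgfbi at 1448123_s_at ran Tgif1 KD 9.64, shControl 8.41, BirA control 7.81, Tgif1 OE 7.47 and Tgif2 OE 7.18, with the last 3 overlapping as neighbours. Nodal at 1422058_at was highest on Tgif1 KD (10.44), which overlapped Tgif2 OE (10.40), and lowest on shControl (9.81). Tdgf1 on Tgif1 KD (13.19) was apart from all others, and shControl (12.62) and Tgif2 OE (12.61) overlapped. Ski kept within 9.01 and 9.10 in all 5 groups, whose neighbours all overlapped.

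The other genes of the pathway were taken from lists of ligands, inhibitors, receptors, Smad regulators and targets, by their probe set with the highest mean; 67 of 77 had a probe set with 1 symbol and were measured. In the knockdown 13 rose and 6 fell, Tgif2 and Tgif1 among them; of all probe sets 11.2% were higher and 11.1% lower, and the counts by role stand beside these same shares. Among ligands and their processing, 3 of 10 rose and 1 fell: Pcsk6, a convertase that cleaves Nodal, rose by 0.86 ± 0.16 (adjusted p = 0.00114), as did the inhibin gene Inha (0.57) and the convertase gene Furin (0.40), and Tgfb1 fell (-0.76). Of 8 inhibitors only the follistatin-like gene Fstl1 rose (1.37 ± 0.13, adjusted p = 3.43e-06). Among 12 Smad regulators and partners 3 rose and 3 fell. Of 9 receptors 2 rose, Acvr1b (0.30), which encodes the type I receptor of Nodal and activin and whose other probe set was -0.01, and Tgfbr2 (0.97), whose other probe sets were -0.06 and 0.00. Of 8 Nodal and activin targets Eomes rose (0.53 ± 0.09, adjusted p = 0.000599) and Fgf8, which was dim, fell (-0.46 ± 0.15, adjusted p = 0.0332). Of 20 TGF-beta response genes 3 rose, the cell cycle inhibitor genes Cdkn2b (0.63) and Cdkn1a (0.59) and the early response gene Klf10 (0.40), and the cadherin gene Cdh2 fell (-0.66).

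On the arrays labelled Tgif1 OE 14 of the 67 rose and 10 fell (all probe sets: 8.74% higher, 9.09% lower), and the TGF-beta response genes held most of the rises, 10 of 20, with Klf10 (-0.20) and Tsc22d1 (-0.52) lower. The smooth muscle actin-binding gene Tagln rose by 3.48 ± 0.37 (adjusted p = 1.58e-05), the matricellular gene Thbs1 by 3.18 ± 0.38 (adjusted p = 4.95e-05) and Ccn1 by 2.21 ± 0.10 (adjusted p = 1.22e-08). Tagln on BirA control ranged from 6.65 to 7.35 and on Tgif1 OE arrays from 10.03 to 10.91. Tgfbi, itself named for its response to TGF-beta, was not among the genes that rose. Among 8 inhibitors 2 rose and 0 fell, and among 12 Smad regulators and partners 1 rose and 5 fell. Those 5 include Tgif1 itself (-0.58), whose signal went against the label, and Tgif2 (-0.45 ± 0.07, adjusted p = 0.000252). The activin inhibitor gene Fst rose by 1.25 ± 0.13 (adjusted p = 1.36e-05) and the ligand gene Tgfb2 by 1.41 ± 0.41 (adjusted p = 0.0257), while Inhbb, an activin subunit, fell (-0.77 ± 0.20, adjusted p = 0.0138), as did Pcsk6 (-0.41) and Nedd4l (-0.43), an E3 ligase of Smads. None of 9 receptors and none of 8 Nodal and activin targets passed in limma; at an unadjusted p under 0.05 there were 4 and 2. Some genes are on both a pathway list and a marker list. Col1a1 and Col1a2 are on the response and the fibroblast lists. Of the Nodal and activin targets, Sox17 and Foxa2 are also primitive endoderm markers. Eomes, Mixl1, Gsc and Mesp1 are also primitive streak and mesoderm markers, and Eomes is a trophectoderm marker as well. Tgfb2 ranged from 4.84 to 6.41 log2 on Tgif1 OE and from 4.01 to 4.48 on BirA control arrays. For genes outside the members only the model without array pairs is given. With this model 4035 of all probe sets were called, with the random block 2156 and with the pairs averaged 1077.

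On the Tgif2 OE arrays 27 of the 67 rose and 3 fell (all probe sets: 24.9% higher, 6.18% lower). Of 20 TGF-beta response genes 8 rose and none fell, with Tagln (2.57 ± 0.37, adjusted p = 0.000123), Thbs1 (2.52 ± 0.38, adjusted p = 0.000195) and Ccn1 (1.97 ± 0.10, adjusted p = 2.8e-08) again the largest. Of 9 receptors 4 rose, the type I receptor gene Tgfbr1 (0.63 ± 0.11, adjusted p = 0.000536), Acvr2b (0.55), the co-receptor gene Cfc1 (0.38) and Acvr1b (0.34). Of 8 inhibitors 4 rose, with Fst (1.20), Fstl1 (0.53) and Ltbp1 (0.43) leading and Fstl3 (0.26) last, and Smad6, an inhibitory Smad, rose by 0.96 ± 0.15 (adjusted p = 0.000265). Of 8 Nodal and activin targets 4 rose, Mixl1 (0.45), Sox17 (0.44), Fgf8 (0.40) and Eomes (0.18). Inhbb (-0.65), Tgif1 (-0.42) and Pmepa1 (-0.37), a feedback inhibitor of TGF-beta signalling, fell. Among 12 Smad regulators and partners 4 rose and 2 fell. These are changes as deposited, beside a median of 0.11 for all probe sets. Tagln ranged from 8.72 to 10.52 and Thbs1 from 6.07 to 7.89 on Tgif2 OE arrays. The highest BirA control values were 7.35 and 4.88. Here too only the model without array pairs is given. It called 7035 of all probe sets, the random block 3785 and the averaged pairs 2289.

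**Figure D4:**
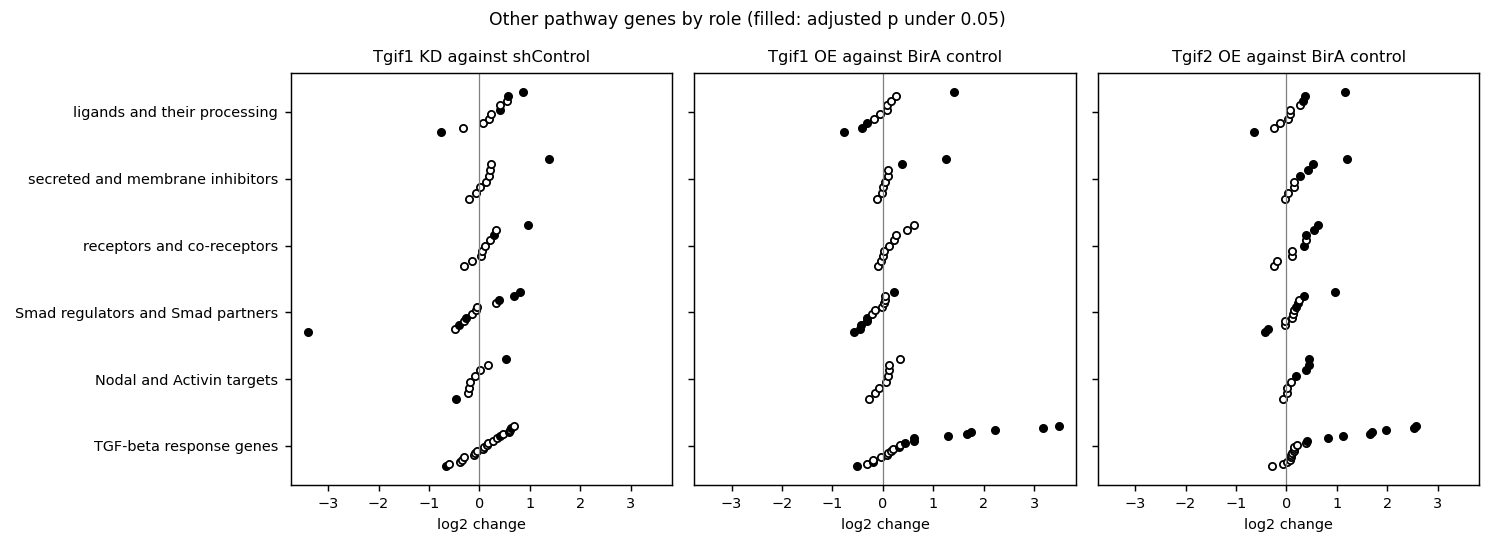
Log2 change of the 67 measured pathway genes outside the 10 members, by role, in 3 comparisons, with 1 point per gene and filled points for an adjusted p under 0.05. The point at -3.39 in the left panel is Tgif1, the knocked-down gene, and the TGF-beta response genes reach 3.48 on the Tgif1 OE and 2.57 on the Tgif2 OE arrays.

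The genes with the most similar pattern were ranked by Pearson's r over the 16 arrays among 12383 genes, as a description; the arrays share groups and arms, which raise such values. For Nodal they were Myb (0.98), Cbr3 (0.96) and Pank1 (0.94). For Lefty1 they were Ttpa (0.98), Smpd4 (0.98) and Srsf6 (0.97). For Skil they were Tpm2 (0.99), Adamts1 (0.98) and Tnfrsf12a (0.98), and for Tgfbi Hibch, Alpk3 and Ndufa3 (all 0.98).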

How the data were processed

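The deposited table holds log2 intensities per probe set, made by the authors with RMA per the submitters' processing notes, which also name limma for the Tgif2 OE samples, with no versions. Of 22690 probe sets 64 controls were left out; 20380 carried 1 symbol in the platform annotation. The values were used as deposited. The model, fitted in limma 3.58.1 (R 4.3.3), had 5 group means over the 16 arrays, with eBayes tests and Benjamini-Hochberg adjustment over the 22626 probe sets of a comparison; the threshold was 0.05. Values after ± are standard errors and ratios are powers of 2 of a log2 change. Summed marker intensities are sums of 2 to the power of each value. The knockdown arm has 2 arrays a group and takes its spread from all 5 groups; the small number of arrays limits precision. The fit was also run on simulated data with known changes and independent noise on each array. These held no likeness within pairs of arrays and no shift of columns, so they cannot show how either affects the calls. The 10 members, the lists and the tests were chosen with earlier results of these data known.

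All members were named, and of the other pathway genes up to 3 per role past the threshold with the largest change. Furin, Klf10, Tsc22d1, Fstl3, Acvr1b (Tgif2 OE) and Eomes (Tgif2 OE) complete counts. Genes on both a pathway list and a marker list were named to show that overlap. All of these were chosen after their values were seen. Likeness took the 3 highest r. In the overexpression arm, same-numbered arrays deviated together from the group means (r from 0.30 to 0.55 in 12 comparisons). The replicate block takes that number as a pairing. However, an array's own number was its best match in 2 of 12, and its own pair of arrays in 12 of 12. The likeness was thus that of the pairs of arrays, and a pairing by number was not shown. In the knockdown arm the correlation was 0.01. Alternatives were quantile normalization, median centring, trended variance, a filter on dim probe sets, the replicate block, the array pair, the groups compared alone and each array left out.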

Additional observations from a re-analysis of the deposited data

Results flagged for a closer look

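In 60 sets of 4 arrays (20 probe sets in 3 groups), 3 held an array far from the rest, about as many as the 1 in 20 that chance gives. They were Smad3 at 1450471_at on Tgif1 OE replicate 2 (4.34 log2, nearest other array 4.58), Smad3 at 1450472_s_at on Tgif2 OE replicate 1 (4.03, nearest 4.21) and Tgfbi at 1415871_at on Tgif1 OE replicate 2 (5.65, nearest 6.13).

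The change against BirA control was compared between replicates 3 and 4 and replicates 1 and 2, a test added after the data were seen. It differed at 1 of 20 probe sets for Tgif1 OE and at 5 of 20 for Tgif2 OE (limma, adjusted over all probe sets). The 60 tests run also held 20 of Tgif1 OE against Tgif2 OE, of which 0 passed. Over all probe sets 3.19% differed for Tgif1 OE and 4.29% for Tgif2 OE. The differences, as replicates 3 and 4 minus replicates 1 and 2, were -0.72 for Tgfbi at 1456250_x_at on Tgif1 OE arrays (adjusted p = 0.0137), and on Tgif2 OE arrays -1.16 for Tgfbi at 1456250_x_at (adjusted p = 0.000553), -0.91 at 1448123_s_at (adjusted p = 0.00412) and -1.08 at 1437463_x_at (adjusted p = 0.0042). Skil differed by 0.63 at 1422054_a_at (adjusted p = 0.0488) and 0.43 at 1452214_at (adjusted p = 0.0163) on Tgif2 OE arrays. Both comparisons use the same BirA control arrays.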

How the results depend on the processing

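Of 100 single results (20 probe sets in 5 comparisons), 45 were called; 19 of these passed in every alternative run, and 25 of the 55 others never did. None of 1760 alternative values turned a called direction. The 12 calls of the knockdown were 9 to 10 with 1 array left out and 15 (10 higher, 5 lower) with the replicate block, though the numbers showed no pairing in that arm; Skil at both probe sets and Smad4 at 1422486_a_at were called lower there. The 4 calls of Tgif1 OE were 1 to 5 with 1 array left out, 6 with the replicate block, 1 with only the groups compared, 7 with the array pair as a fixed term, 9 in replicates 3 and 4 alone, 1 with the pair as a random block (consensus correlation 0.53) and 0 with pairs averaged (3 at an unadjusted p under 0.05; limma). The 8 of Tgif2 OE were 6 to 9, 12 with the replicate block, 13 in replicates 3 and 4, 5 with the random block and 3 with pairs averaged. Replicates 3 and 4 alone gave 4577 calls over all probe sets for Tgif1 OE and 7058 for Tgif2 OE. For Tgif1 OE the fixed term gave 6564 such calls and the groups compared alone 3212. The 7 of Tgif1 OE against Tgif2 OE were 5 with any 1 array left out, 8 with the replicate block, 1 after quantile normalization (Ski, higher), and 0 after centring, with the random block and with pairs averaged (10, 8 and 8 at an unadjusted p under 0.05; limma). The 14 of the difference of effects were 9 to 14 with 1 array left out, 15 with the replicate block, 11 with the random block and 10 with pairs averaged. With 1 array left out, calls over all probe sets were 3152 to 3418 for the knockdown. They were 3238 to 3750 for Tgif1 OE and 5967 to 6525 for Tgif2 OE. The direct comparison gave 3013 to 3631, and the difference of effects 3987 to 5494. After quantile normalization the direct comparison gave 1941, and after centring 1784. The random block and the averaging were added after the data were seen. Calls over all 22626 probe sets moved too. For the knockdown they were 5042, and 6935 with the replicate block. For Tgif1 OE, Tgif2 OE, their direct comparison and the difference of effects they were 4035, 7035, 4216 and 5560. With the replicate block these were 5703, 8956, 6376 and 7399. The random block gave 2156, 3785, 957 and 4416, and averaging the pairs 1077, 2289, 166 and 3716. Where a call changed, the cause was not tested, except that leaving out arrays or averaging pairs leaves fewer values. Dim probe sets such as those of Smad3 lie near the low end of the scale, which limits what can be read from them.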
